A study of Mus musculus with 4 samples.

Results

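The 4 gap junction genes Gja1, Gja4, Gja5 and Gjb5 were followed in whole mouse embryos that carried a Btaf1 mutation and in wild-type embryos. All non-control probes that the array files name after 1 of the 4 genes were taken. The array named 21958 genes, and 7 of its 41174 probes were taken, namely 4 for Gja5 and 1 each for Gja1, Gja4 and Gjb5. Of the 7, 5 passed the filter on dim probes, as did 21940 probes in all. The 4 genes were picked with their mutant over wild-type ratios already known, so those ratios are described here without a test.

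The mutant embryos were homozygous for the ENU-induced V1330M allele of Btaf1, and the control embryos were wild type. Btaf1 encodes an ATPase that takes the TATA-binding protein off DNA. Both came from C57BL/6J *FVB/NJ hybrid stock with an FVB/NJ share of 50 to 90%, and embryos of 3 to 5 somites were preferred. Pools of embryos were paired in 2 ways. In the age-matched set as many litter mates as possible were compared, and pools could differ by up to 5 somites. In the stage-matched set the somite count decided the pairing. Each set was hybridised to 2 arrays with mutant RNA in one dye and wild-type RNA in the other, array 1 with the mutant in Cy5 and array 2 with the dyes exchanged. The 2 arrays of a set share their pools and are averaged into 1 replicate, so n = 2. Neither the number of embryos per pool nor the handling of the yolk sac is stated in the sources used here. The allele is a point mutation, so the Btaf1 signal does not check the genotype. Of 43379 spots on each array, the share well above background was 52.9% to 59.6% for mutant RNA and 57.1% to 59.5% for wild-type RNA, and 0 were saturated.

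Connexins are membrane proteins that assemble into hexameric hemichannels. Hemichannels of neighbouring cells dock to form gap junctions, through which ions and small metabolites pass between the cells. The family members differ in the tissues that make them. Gja5 (Cx40) is known from atrial and conduction-system muscle and from arterial endothelium, where it is present with Gja4 (Cx37). Gja1 (Cx43) is the most widespread connexin and the main one of working ventricular muscle in the adult. Gjb5 (Cx31.1) is known from the trophoblast of the mouse placenta and from skin.

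The probes are 60 bases long and their sequences are shown because 1 of the 4 Gja5 probes, A_52_P525317, gave a ratio unlike the other 3. Positions are those of the array files for build mm9 (NCBI37), and the sequences are those of the files, 5′ to 3′, whole for the first and the first 30 bases for the others.
Gja5 A_51_P333216, chr3:96854968-96855027, plus strand, from base 519 of the RefSeq mRNA: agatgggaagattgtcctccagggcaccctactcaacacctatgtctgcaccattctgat
Gja5 A_52_P525317, chr3:96857349-96857408, plus strand, from base 2900 of the same mRNA: ccgacactggcactaagactctctgttctg
Gja5 A_52_P496163, chr3:98214966-98215025, plus strand, on another cDNA: tgtccccagtggccctgtgtgttgacagag
Gja5 A_52_P612636, chr3:98215672-98215731, plus strand, on the same cDNA as the last: tgtttctttaagtcaatgctaatacaaaca
Gja1 A_52_P174915, chr10:56109814-56109873, plus strand, from base 2693 of its mRNA: ctacacattaactcagaacttgtattctga
Gja4 A_52_P117352, chr4:126988848-126988907, minus strand, from base 1381 of its mRNA: acccagcgccaagttgactttcgagcctcc
Gjb5 A_51_P385639, chr4:127032665-127032724, minus strand, from base 1032 of its mRNA: ctctcatgaatgtagctgatggggagaaga

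The 2 Gja5 probes on the RefSeq mRNA lie 2381 bases apart both in the genome and in the transcript, so no intron separates them by these coordinates. The other 2 Gja5-named probes, A_52_P496163 and A_52_P612636, lie 1.36 Mb further along chromosome 3 and 706 bases from each other, on a cDNA other than the RefSeq mRNA. Accessions listed in the files tie A_52_P496163 to the RefSeq-mRNA probe A_51_P333216 all the same. The nearest probe of another named gene to A_52_P496163 is that of Zfp697 at 18.7 kb. The 2 distant probes are therefore reported by their probe names and not as a level of Gja5.

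Gja5 gave the lowest ratio of the 4 genes, through its probe further along the mRNA. Probe A_52_P525317 had normalised intensities of 117 and 181 on the age-matched arrays 1 and 2 and of 137 and 143 on the stage-matched arrays 1 and 2 in mutant embryos. In wild-type embryos it had 418 and 591 on the age-matched arrays and 355 and 306 on the stage-matched ones. Every mutant intensity was thus below every wild-type intensity. The log2 ratio of mutant over wild type was -1.83 and -1.71 on the age-matched arrays and -1.37 and -1.09 on the stage-matched arrays. Its mean was -1.50 ± 0.38 (SD, n = 2 sets), which is 2.83-fold lower in mutant embryos and 10th from the lowest among tested probes. Intensities include an offset of 50 that was added before taking logarithms, which shrinks the ratios of dim probes. With the scanning software's processed signals, which carry no such offset, the probe had 74.7 and 127 in the mutant on the age-matched arrays and 83.5 and 95.3 on the stage-matched ones, against 440, 722, 334 and 304 in wild type. The log2 ratio was then -2.18 ± 0.49 (SD, n = 2), or 4.55-fold lower in mutant embryos, 1.61 times the fold above. The mutant readings were dim, so the size of the fold depends on the handling of background. Without background correction the log2 ratio was -1.16. In RNA of whole embryos a lower signal can come from fewer cells that express a gene or from less RNA per cell, and these cannot be told apart.

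The probe nearer the start of the Gja5 mRNA gave similar signals in both genotypes, at a dim level. A_51_P333216 had intensities of 118 and 141 in mutant embryos on the age-matched arrays and 112 and 122 on the stage-matched ones. In wild type it had 123 and 132 on the age-matched arrays and 107 and 104 on the stage-matched ones. The groups overlapped. Its log2 ratio was -0.06 and 0.10 on the age-matched arrays and 0.06 and 0.23 on the stage-matched arrays, with a mean of 0.08 ± 0.09 (SD, n = 2). The probe was well above background on 3 of 4 arrays in either channel, which left it out of the test. Its ratio exceeded that of A_52_P525317 on the same array by 1.77 and 1.80 on the log2 scale on the age-matched arrays and by 1.33 on stage-matched array 2. On stage-matched array 1, where A_51_P333216 was not well above background in either channel, the difference was 1.43. On the 3 arrays where both were measured, the 2 probes of this mRNA differed by more than either varied between arrays. The lowest intensity that counted as well above background was 82.9 to 93.8 in the mutant channels and 62.7 to 93.0 in the wild-type channels, and A_51_P333216 read close to it. The mutant readings of A_52_P525317, from 117 to 181, were little brighter.

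The 2 distant probes with the Gja5 name had ratios near 0. A_52_P496163 was well above background on all arrays, with intensities of 181 and 206 in mutant embryos on the age-matched arrays and 204 and 191 on the stage-matched arrays. The wild-type intensities were 177 and 232 on the age-matched arrays and 184 and 197 on the stage-matched arrays. Its log2 ratios were 0.03 and -0.17 on the age-matched arrays and 0.15 and -0.04 on the stage-matched arrays, with a mean of -0.01 ± 0.09 (SD, n = 2). A_52_P612636 was above background on 0 of 4 arrays in both channels, at 58.6 to 69.1 in the mutant and 56.3 to 66.2 in wild type, so its ratios are those of background signal.

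Gja4, the endothelial partner of Gja5, was lower in mutant embryos on every array, by less than Gja5 A_52_P525317. Its probe read 478 and 423 in mutant embryos on the age-matched arrays and 353 and 561 on the stage-matched ones. The wild-type readings were 624 and 588 on the age-matched arrays and 576 and 765 on the stage-matched ones. The highest mutant intensity, 561, lay just below the lowest wild-type one, 576, so the groups did not overlap. The log2 ratios were -0.38 and -0.47 on the age-matched arrays and -0.71 and -0.45 on the stage-matched arrays. The mean of -0.50 ± 0.10 (SD, n = 2) means that the signal was 1.42-fold higher in wild type, and it ranked 557th from the lowest among tested probes. Processed signals gave a log2 ratio of -0.51.

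Gja1, the most widespread connexin, went the other way. Its probe read 5965 and 5501 in mutant embryos on the age-matched arrays and 4050 and 4382 on the stage-matched ones. Wild-type embryos gave 3664 and 4436 on the age-matched arrays and 3014 and 2508 on the stage-matched ones. The mutant was the brighter channel on each of the 4 arrays, but across arrays the groups overlapped, and the age-matched pools read higher in both genotypes. The log2 ratios were 0.70 and 0.31 on the age-matched arrays and 0.43 and 0.80 on the stage-matched arrays, with a mean of 0.56 ± 0.08 (SD, n = 2), or 1.48-fold higher in mutant embryos. Its ratio ranked 136th from the highest.

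The Gja1 probe was spotted 10 times on each array, so its ratio can be followed within an array. On age-matched array 1 the 10 spots gave log2 ratios with a lowest of 0.52, a median of 0.64 and a highest of 0.96. On age-matched array 2 these were 0.17, 0.33 and 0.50. On stage-matched array 1 they were 0.17, 0.39 and 0.68, and on stage-matched array 2 they were 0.71, 0.81 and 0.92. Every spot was positive. On age-matched array 1 the lowest spot, at 0.52, lay just above the highest of array 2 of the same pools, at 0.50. The spots of these dye-exchanged arrays thus did not overlap. The SD over the 10 spots was 0.150 and 0.109 on the age-matched arrays and 0.150 and 0.0599 on the stage-matched arrays. The median SD over the 138 probes with repeated spots was 0.101 and 0.0893 on the age-matched arrays and 0.130 and 0.0860 on the stage-matched ones.

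**Figure D1:**
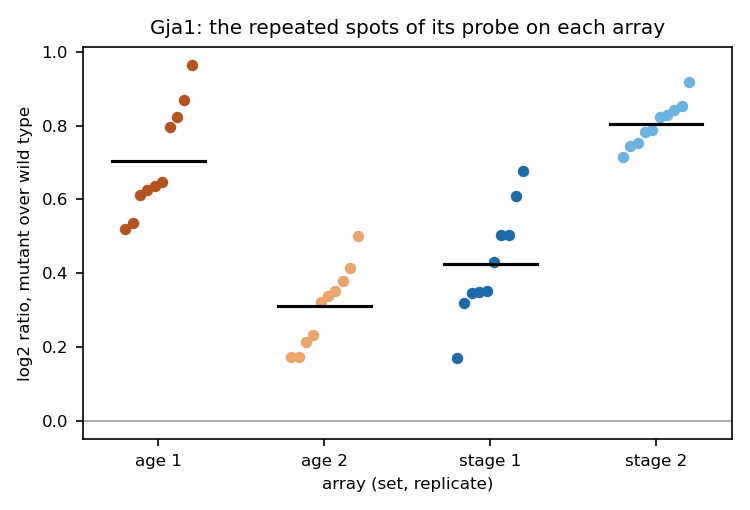
Log2 ratio of mutant over wild type (vertical axis) for each of the 10 Gja1 spots on the 4 arrays (age is the age-matched set and stage the stage-matched set; 1 has the mutant in Cy5, 2 in Cy3). Points are spots and bars their means. All spots lie above 0, from 0.17 to 0.96, and the 2 arrays of each set separate.

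For Gjb5, the trophoblast and skin connexin, mutant and wild-type embryos differed by less than the scatter of the arrays. Its intensities were 295 and 261 in mutant embryos on the age-matched arrays and 254 and 268 on the stage-matched arrays. In wild type they were 286 and 322 on the age-matched arrays and 269 and 250 on the stage-matched arrays. The groups overlapped, and the log2 ratio was 0.04 and -0.30 on the age-matched arrays and -0.08 and 0.10 on the stage-matched arrays. The mean was -0.06 ± 0.10 (SD, n = 2), and the SD was larger than the mean's size.

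**Figure D2:**
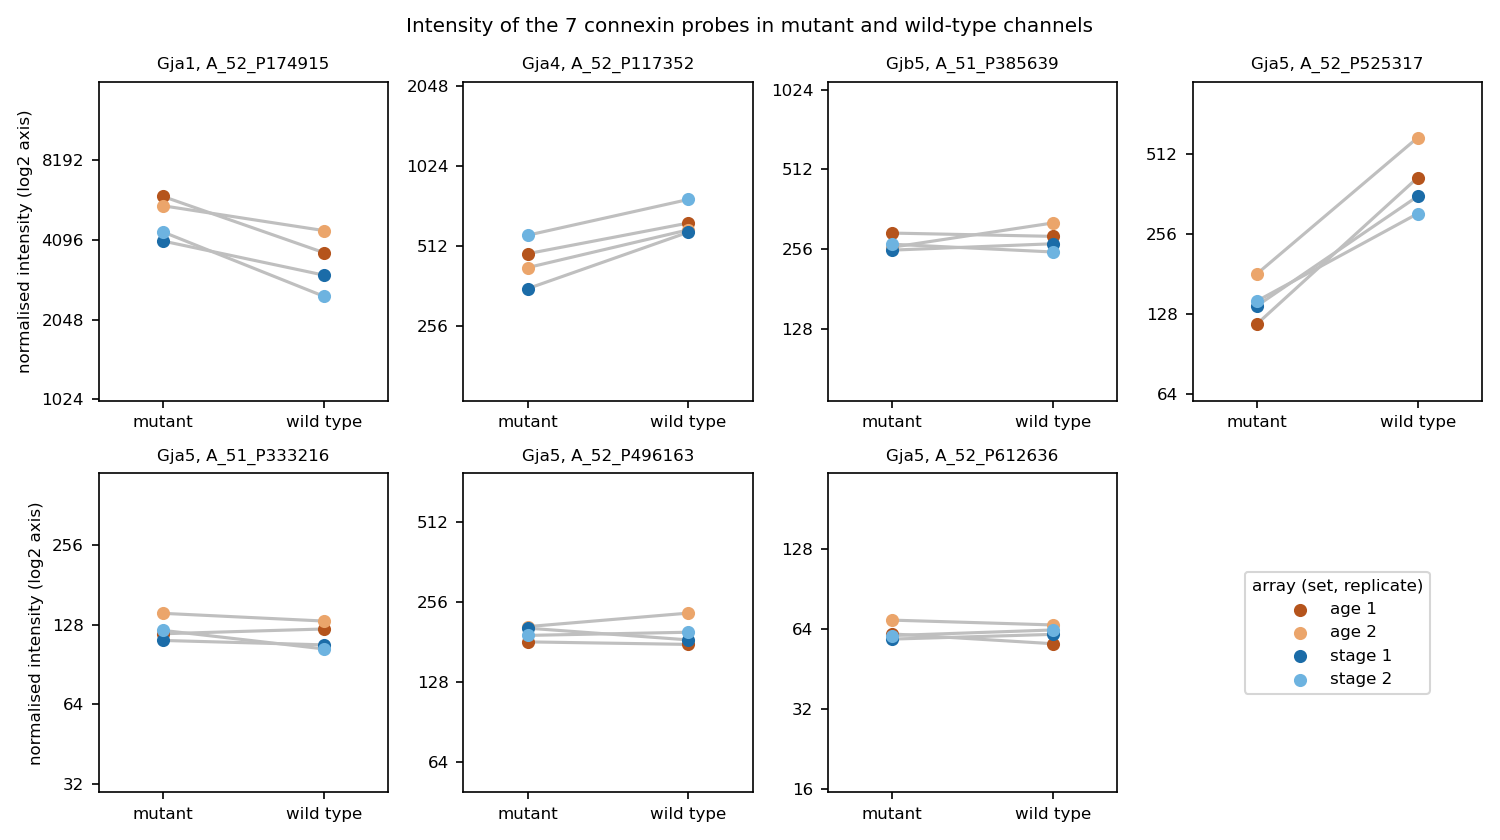
Normalised intensity (vertical log2 axis, offset of 50 included) of the 7 probes in the mutant channel, left, and the wild-type channel, right. Each point is 1 channel and grey lines join the channels of an array. Gja5 A_52_P525317 and Gja4 keep the mutant points below the wild-type points, Gja1 has the mutant above wild type on each array, and the other 4 probes overlap.

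In the limma fit over all 21940 tested probes with Benjamini-Hochberg adjustment and a threshold of 0.05, 3 of the 5 tested connexin probes passed: Gja5 A_52_P525317 and Gja4 lower, and Gja1 higher. Of all tested probes 4.81% passed, 3.14% lower and 1.66% higher. The count is printed for orientation only, because the genes were chosen on this contrast. Mutant intensities all below the wild-type ones were found for 3.66% of tested probes and all above them for 3.54%, and ratios below 0 on all 4 arrays for 15.1%. Positive ratios on all 4 arrays, as for Gja1, were found for 12.5%. Gja1 lost its call with median centring, without background correction and without age-matched array 1. Gja4 lost it without background correction and without age-matched array 1, age-matched array 2 or stage-matched array 1.

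**Figure D3:**
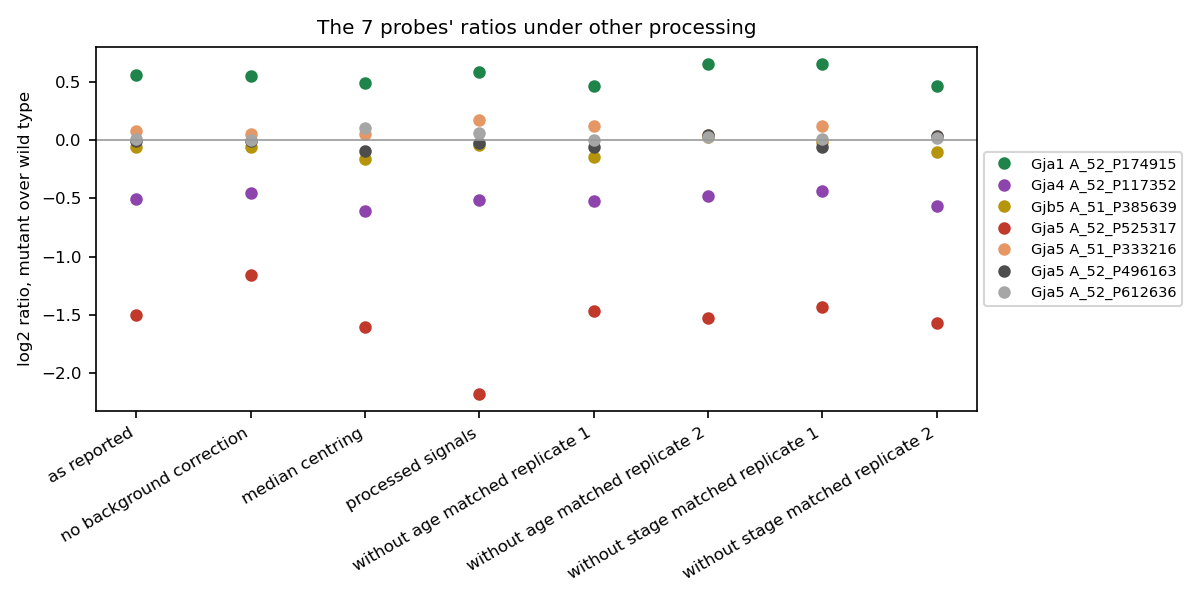
Log2 ratio of mutant over wild type (vertical axis) of the 7 probes as reported and under 7 other settings (horizontal axis). Gja1 stays above 0, and Gja4 and Gja5 A_52_P525317 stay below 0, in each setting. Gja5 A_52_P525317 ranges from -2.18 with processed signals to -1.16 without background correction.

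Whether the way the pools were paired mattered was asked of each connexin by testing the age-matched ratio minus the stage-matched ratio, a contrast that did not choose the genes. Its error is technical, between dye-exchanged arrays, and rests almost wholly on a prior over all tested probes (242 prior degrees of freedom). The SE is therefore nearly the same for each probe and is not that probe's own scatter. For Gja5 A_52_P525317 the ratio was -1.77 in the age-matched set and -1.23 in the stage-matched set, a difference of -0.54 (SE 0.17; limma adjusted p = 0.0779 over all tested probes). It did not pass the threshold of 0.05, and the adjusted p ranged from 0.0603 to 1 over the alternatives. Gja4 differed by 0.15 (SE 0.17; limma adjusted p = 0.847) and Gja1 by -0.11 (SE 0.18; limma adjusted p = 0.901). Gjb5 differed by -0.14 (SE 0.18; limma adjusted p = 0.861) and A_52_P496163 by -0.12 (limma adjusted p = 0.885). None of the 5 tested probes passed, against 2.31% of all tested probes, although Gja5 A_52_P525317 had an unadjusted p of 0.00238. A missed threshold does not show that the sets gave equal ratios.

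Of the rest of the family, 21 probes for 15 other connexin and pannexin genes were analysed, and 5 probes of 4 genes were tested. In the mutant over wild-type comparison 0 of the 5 passed in limma, against 4.81% of all tested probes. Gjb2 (Cx26), a connexin of the placental labyrinth and the inner ear, had log2 ratios of -0.47 and -0.14 on the age-matched arrays and -0.42 and -0.38 on the stage-matched arrays. Its mean was -0.35 ± 0.07 (SD, n = 2; limma adjusted p = 0.0710). These values are from its tested probe. Its other probe had -0.02 and was above background on 0 of 4 arrays in both channels. Gjc1 (Cx45), the connexin of the earliest heart tube in mouse, had means of 0.09 and -0.17 in its 2 probes. Gjd3, known from the mouse atrioventricular node, had -0.05. It was dim, above background on 4 of 4 arrays in wild type and on 2 of 4 in the mutant. Panx1, a pannexin that releases ATP, had -0.13 (limma adjusted p = 0.456). The other 11 genes had no probe above background often enough to be tested. The tested probes of the 4 genes spanned ratios from -1.50 to 0.56 and those of these other family genes from -0.35 to 0.09, with the 4 genes chosen for their ratios.

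**Figure D4:**
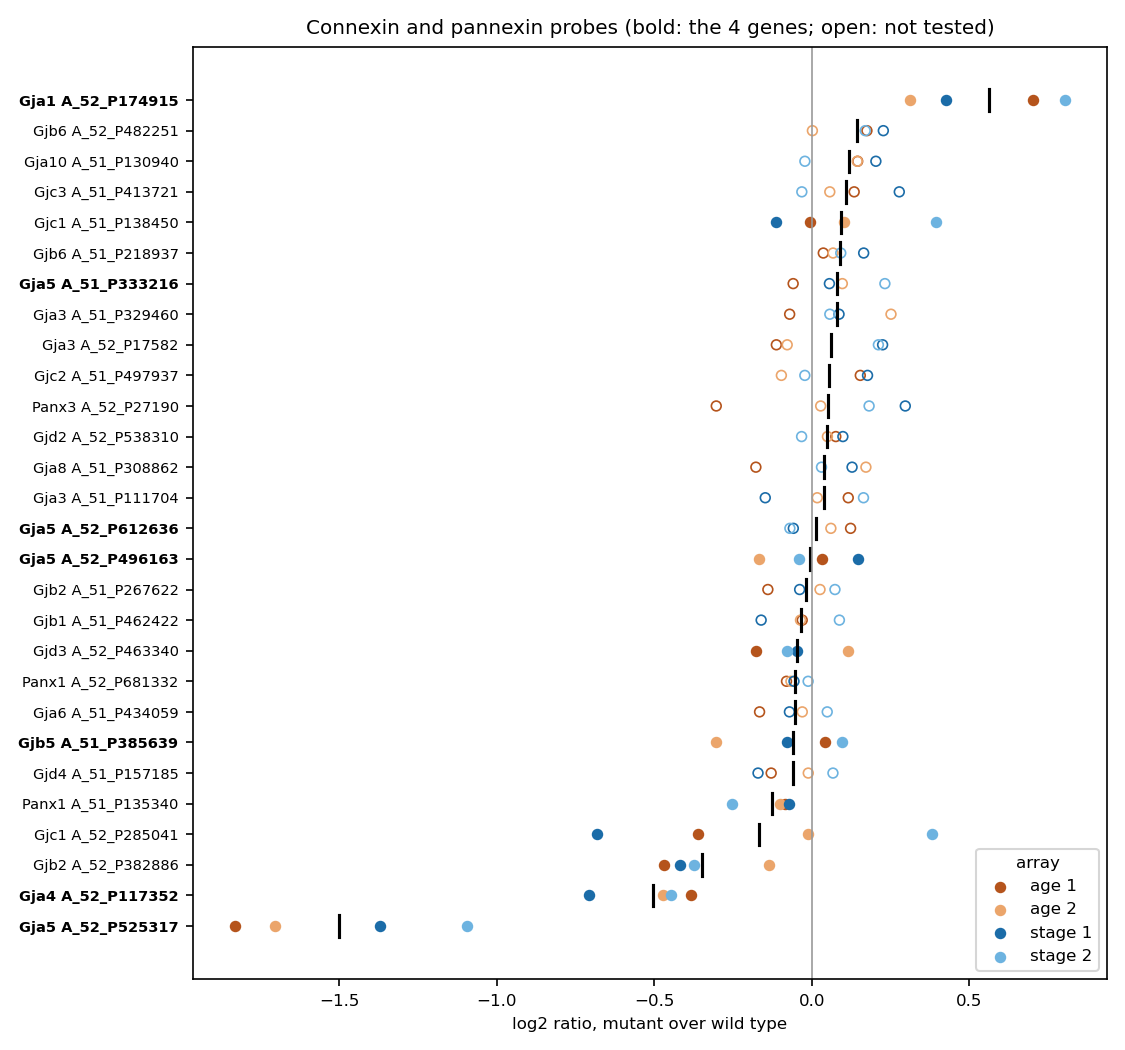
Log2 ratio of mutant over wild type (horizontal axis) for 28 connexin and pannexin probes, ordered by their mean (black bar). Coloured points are the 4 arrays, open where the probe was not tested, and bold names are the 4 genes described. Gja1 is at the top with 0.56 and Gja5 A_52_P525317 at the bottom with -1.50.

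Genes with the most similar pattern were ranked by Euclidean distance between log2 ratios over the 4 arrays, as a description. Nearest to Gja5 A_52_P525317 were Tnni3, the cardiac troponin I, at 0.390, Apoa1, an apolipoprotein, at 0.436 and Actc1, cardiac actin, at 0.439. Tnni3 had -1.83 and -2.07 on the age-matched arrays and -1.35 and -1.22 on the stage-matched arrays. Of these 3 genes 2 encode heart muscle proteins and the other is secreted by visceral endoderm. The distance depends on the size of the ratios, so a probe with so low a ratio can only have strongly lowered genes nearby. No shared tissue is therefore read from these neighbours. Nearest to Gja4 were 2610528J11Rik at 0.109, Slc30a1, a zinc transporter, at 0.142 and Zfp661 at 0.153. Nearest to Gja1 were Catsper2 at 0.248, St8sia3 at 0.250 and Spock3 at 0.257. Nearest to Gjb5 were BC031181 at 0.0610, Phlpp at 0.0646 and Dbf4 at 0.0705.

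Lists of genes from the tissues where these connexins are known to act give the setting for their values, and over all 13818 tested genes the median log2 ratio was 0.02, with 4.88% called, 2.77% lower and 2.11% higher. Among heart muscle genes, a setting of Gja5 and in the adult also of Gja1, 13 of 19 tested genes fell in mutant embryos and 0 rose. The count that fell was 2 without background correction, 5 without the filter on dim probes and 2 without age-matched array 1. Their median log2 ratio was -0.93, or -1.39 in the age-matched and -0.48 in the stage-matched set. Myh7, a cardiac myosin heavy chain, had -1.69 ± 0.35 (SD, n = 2; limma adjusted p = 0.00148) and Tnni3 -1.62 ± 0.47 (SD, n = 2; limma adjusted p = 0.00314). The summed intensity of the list was 59421 to 88452 in mutant channels and 145287 to 164784 in wild-type channels, without overlap. Most of this sum came from a few bright genes, Myh7 among them. Pln and Casq2 were above background on 0 of 4 arrays. Heart muscle signal was thus lower in mutant embryos along with the Gja5 A_52_P525317 signal, while Gja1 was higher, with a ratio of 0.56. The part of heart muscle signal in the Gja5 and Gja1 results was not tested.

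Transcription factors that control connexins of the heart and conduction system had smaller ratios. Of 16 tested, 2 fell and 0 rose, with a median log2 ratio of -0.15, and 0 fell without background correction or without the filter on dim probes. Without any 1 of the arrays 0 fell, except that 1 fell without stage-matched array 2. The 2 were Mef2c, a muscle regulator, at -0.51 ± 0.25 (SD, n = 2; limma adjusted p = 0.0424) and Tbx5, an activator of Gja5 in mouse, at -0.41 ± 0.04 (SD, n = 2; limma adjusted p = 0.0463). Nkx2-5, which acts with Tbx5, had -0.18 (limma adjusted p = 0.297). The summed intensities were 21077 to 22040 in mutant and 20246 to 24162 in wild-type channels and overlapped. Of the 16 genes 12 were below 0 and 4 above, with a highest ratio of 0.37, against 6346 below 0 of all 13818 tested genes. The list does not separate activators from repressors, so its median has no direction for connexins. The part of these factors in the connexin values was not tested.

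Endothelial genes, the setting of Gja4, had a median log2 ratio of -0.18, and 20 of 21 tested genes were below 0, against 6346 of all 13818 tested genes, while 1 fell and 0 rose. The gene that fell was Kdr, a VEGF receptor, at -0.54 ± 0.23 (SD, n = 2; limma adjusted p = 0.0333), a call lost without background correction, without the filter on dim probes and without either age-matched array. Emcn, a sialomucin of the endothelial surface, had -0.38 ± 0.64 (SD, n = 2; limma adjusted p = 0.261). The summed intensity was 21640 to 22316 in mutant and 23733 to 25543 in wild-type channels, without overlap. The sum weighs the brightest genes most, which were not called, and its difference was not tested. Arterial genes had a median of -0.14, and of 14 tested 0 passed in either direction in limma, while median centring called 1 and processed signals 2 of them lower. The guidance receptor Unc5b had -0.44 (limma adjusted p = 0.0965) and the VEGF co-receptor Nrp1 -0.35 (limma adjusted p = 0.0762). Arterial summed intensities overlapped, at 11818 to 14071 in mutant and 12468 to 14909 in wild-type channels. Some of the 14 arterial genes passed the filter on dim probes through the wild-type channel alone. The part of endothelial signal in the Gja4 result was not tested.

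Partners of connexins at the cell junction, a setting of Gja1, gave 0 calls in either direction among 16 tested genes, with a median log2 ratio of 0.02. Dsp, a desmosomal plaque protein, had 0.27 (limma adjusted p = 0.128) and Pkp2, a plakophilin, 0.22 (limma adjusted p = 0.205). Tjp1, the scaffold that binds the Gja1 tail, had -0.03. The summed intensities overlapped, at 54333 to 66679 in mutant and 54401 to 58416 in wild-type channels.

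Trophoblast genes, a setting of Gjb5, also gave 0 calls in either direction among 13 tested of 22 listed, with a median of -0.01, while processed signals called 1 higher. Elf5, a trophoblast stem cell factor, had 0.33 (limma adjusted p = 0.0798) and Plac1, a placental protein, -0.25 (limma adjusted p = 0.241). The listed markers Tpbpa, Tpbpb, Gcm1, Eomes, Esrrb and Synb were above background on 0 of 4 arrays in both channels. The summed intensity was 105758 to 114749 in mutant and 108319 to 114657 in wild-type channels, and most of it came from Krt8, Krt18 and Phlda2, which other tissues also express. The placental lactogens Prl3d1 and Prl3b1, and Ascl2, Esx1, Elf5 and Plac1, were above background on 4 of 4 arrays in both channels. Prl3d1 averaged 325 in mutant and 315 in wild-type embryos and Prl3b1 147 in mutant and 143 in wild-type embryos. The trophoblast markers were thus detected in part. Among surface ectoderm genes, the other setting of Gjb5, 1 of 13 rose and 0 fell. That gene was Grhl2, an epithelial transcription factor, at 0.51 ± 0.21 (SD, n = 2; limma adjusted p = 0.0350), a call lost with median centring, without background correction, without the filter on dim probes and without any 1 array other than stage-matched array 1. Perp, a desmosome gene, had 0.34 (limma adjusted p = 0.0826). Of the 13 genes 8 were above 0 and 5 below, and the median was 0.04 in the stage-matched and -0.03 in the age-matched set. The median was 0.07 and the summed intensities overlapped, at 13041 to 15447 in mutant and 12596 to 13970 in wild-type channels.

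Visceral endoderm, an extra-embryonic layer that could be carried along with whole embryos, was listed as a tissue that none of the 4 genes is meant to mark. Of its 18 tested genes 11 fell and 0 rose, with a median of -0.63, and 5 fell without background correction and 4 without age-matched array 1. Apoa1 had -1.64 ± 0.21 (SD, n = 2; limma adjusted p = 0.000753) and Slc2a2, a glucose transporter, -1.61 ± 0.12 (SD, n = 2; limma adjusted p = 0.000721). The summed intensity was 43898 to 54525 in mutant and 85939 to 94670 in wild-type channels, without overlap, and most of it came from a few bright genes. The part of visceral endoderm signal in the Gja5 A_52_P525317 and Gja4 values was not tested.

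**Figure D5:**
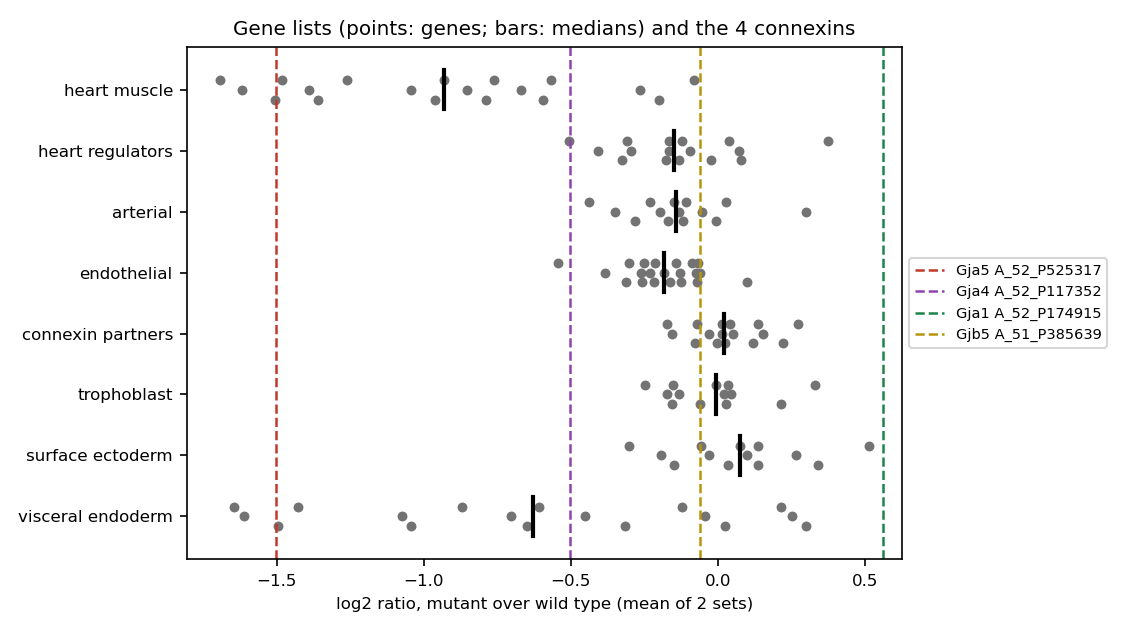
Mean log2 ratio of mutant over wild type (horizontal axis) of the tested genes of 8 lists (points, with black bars at the medians), and of the brightest tested probe of each of the 4 connexins (dashed lines). The heart muscle median is -0.93 and the visceral endoderm median -0.63, while the other 6 medians lie between -0.18 and 0.07.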

How the data were processed

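RNA of mutant and wild-type embryo pools, 300 ng per dye per the labels, was hybridised to 4 two-colour Agilent arrays. Spot and background intensity was read by the scanning software and is not normalised, per the file headers. Its processed intensity is background-subtracted and dye-normalised, per the file headers. The value table that the authors deposited gives log10 ratios, mutant over wild type. They differed from the scanner's log10 ratio, its sign turned on dye-exchanged arrays, by at most 5e-06. For the dim probe A_52_P612636 the mean was 0 in that table, while the ratio of processed signals was 0.06 on the log2 scale. Column medians were 0 on each array. The submitters' processing notes name Feature Extraction 9.5.3 and the file headers 10.5.1.1. All arrays shared 1 slide and 1 scan.

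Here, limma 3.58.1 in R 4.3.3 corrected mean signals for median background (normexp, offset 50), applied loess within arrays with control and marked spots at weight 0, turned ratios to mutant over wild type, averaged spots of a probe and scaled single channels with Aquantile. A probe was tested if it was well above background on all 4 arrays in the mutant or in the wild-type channel. The 2 dye-exchanged arrays of a set were averaged, and the 2 set means were tested against 0 with Benjamini-Hochberg adjustment (1 residual and 7.12 prior degrees of freedom). The set difference was fitted on 4 arrays with dye orientation as a term. The labels do not say that the sets used separate litters. The mutant over wild-type p-values rest on the spread between the 2 set means and, with more weight, on the prior over all tested probes. Those of the set difference rest on technical error between dye-exchanged arrays and, almost wholly, on such a prior (242 prior degrees of freedom). Neither measures a spread between litters, and the number of arrays limits the precision. Genes were named from RefSeq (assembly GRCm38.p6, names only) by accession for 25089 probes, by another listed accession for 166 and by the file's symbol for 9504, leaving 6415 without a name. A gene with several tested probes is given by the brightest. Named genes are all members, all other tested family genes except some that are not reported here, the 2 largest ratios of each list, genes named as background, and the 3 nearest patterns of each member; the trophoblast genes beyond the 2 largest ratios were named after their values were seen. Alternatives were other background, normalisation and filter choices, processed signals and leaving out each array. The members and the lists were chosen with earlier results of these data known.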

Additional observations from a re-analysis of the deposited data

Results flagged for a closer look

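The age-matched minus stage-matched difference of the log2 ratio passed the limma threshold for 5 genes named beside the connexins, 3 with the lower and 2 with the higher ratio in the age-matched set. It was -0.91 for Emcn (adjusted p = 0.000135), -0.91 for Actc1 (adjusted p = 0.000135) and -0.66 for Tnni3 (adjusted p = 0.0145). It was 0.88 for Prl3d1 (adjusted p = 0.000243) and 0.67 for Phlda2 (adjusted p = 0.0125). Only genes named above are counted here, and further heart muscle genes passed with the lower ratio in the age-matched set. The median of the heart muscle list was -1.39 in the age-matched and -0.48 in the stage-matched set. Over all tested probes 352 passed higher and 155 lower. The error of this test is technical. With median centring, without background correction and without the dye term, 0 probes passed with a lower ratio in the age-matched set, and 1, 0 and 0 in that order with a higher one. The Gja5-named probe A_52_P612636 had positive ratios on both age-matched arrays and negative ratios on both stage-matched arrays, a difference of 0.16 that was not tested. It was above background on 0 of 4 arrays in both channels, so these are ratios of background signal and say nothing of expression.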

How the results depend on the processing

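Leaving out 1 array at a time, the mean log2 ratio ranged from -1.57 to -1.43 for Gja5 A_52_P525317, from 0.04 to 0.13 for A_51_P333216, from -0.06 to 0.04 for A_52_P496163, from -0.0022 to 0.03 for A_52_P612636, from -0.57 to -0.44 for Gja4, from 0.46 to 0.66 for Gja1 and from -0.15 to 0.02 for Gjb5. Between 1 and 3 of the tested connexin probes were then called, and 10 to 393 of all probes were higher and 13 to 814 lower, the fewest without age-matched array 1. Genes called lower ranged from 2 to 14 in heart muscle, 4 to 11 in visceral endoderm and 0 to 1 in the regulator, endothelial and arterial lists, and genes called higher from 0 to 1 in surface ectoderm. With processed signals, and likewise in the authors' deposited table, Gja5 A_52_P525317 had -2.18 and A_51_P333216 0.18. Processed signals called 747 probes higher and 1077 lower, 2 arterial genes and 1 regulator lower, and 1 trophoblast and 1 visceral endoderm gene higher. Without background correction 1 connexin probe was called, with 20 probes higher and 42 lower, 2 heart muscle and 5 visceral endoderm genes lower, and 0 regulators, 0 endothelial and 0 surface ectoderm genes. Median centring called 120 probes higher and 824 lower, against 365 and 690 as reported, with 1 arterial gene and 1 regulator lower and 0 surface ectoderm genes higher. Without the filter on dim probes 209 probes were higher and 386 lower, with 5 heart muscle genes lower and 0 regulators, 0 endothelial and 0 surface ectoderm genes. The set difference called 352 probes higher and 155 lower as reported, 1 and 0 with median centring, 0 and 0 without background correction, 0 and 0 without the dye term, and 71 and 79 with processed signals. With all tested probes of a gene averaged, the median ratio was -0.00077 for the junction partners and -0.55 for visceral endoderm. The causes of these changes were not tested. No paired analysis was possible because the array number of a set marks its dye orientation, and the mutant and wild-type pools of an array are already compared as 1 ratio. Leaving out an array was not run for the set difference, which would keep 0 residual degrees of freedom. Signals near background limit the Gja5 probes, and 2 pairs of pools limit the whole comparison.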
